A study of Mus musculus with 6 samples.

Results

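The hnRNP and SR splicing factors described here are the 31 rows, of 49492 in the count table, whose symbol begins with Hnrnp and a letter or with Srsf and a digit, leaving out symbols marked as pseudogenes. They comprise 20 hnRNP genes and 11 SR genes. Cells of the mouse macrophage line RAW264.7 were transfected for 48 h with siRNA at 50 nM, either targeting Ep300 or a control sequence, and polyadenylated RNA was sequenced as stranded libraries. The 3 Ep300 siRNA samples are labelled Ep300 silenced and the 3 control siRNA samples WT, so that every sample had been transfected. All samples come from the same cell line, and the labels do not say whether samples of a group were separate cultures, so that the p-values reflect the spread among these samples alone, which may be technical. The comparison asks how expression of these genes differed after silencing of Ep300, which encodes the lysine acetyltransferase and transcriptional coactivator p300.

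Heterogeneous nuclear ribonucleoproteins (hnRNPs) and serine- and arginine-rich (SR) proteins bind nascent transcripts and set which splice sites the spliceosome uses. SR proteins mostly act from exonic enhancers and carry an RS domain that kinases of the SRPK and CLK families phosphorylate. hnRNPs often oppose them from silencer elements, and several also act in mRNA export, stability and translation. Many genes of both groups limit their own protein level by splicing a premature stop codon into their transcripts, which are then removed by nonsense-mediated decay. Counts per gene do not separate such transcripts from those that make protein.

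Total counts ran from 29993567 to 37132333 in the Ep300 siRNA libraries and from 35930658 to 45377510 in the control siRNA libraries. Ep300 was at 51.1, 59.0 and 54.9 CPM (the usual count rate relative to library size, here TMM-scaled) in the Ep300 siRNA libraries, against 106.8, 115.3 and 118.4 CPM in the control siRNA libraries. That is a log2 fold change of −1.04 ± 0.07 (SE; edgeR adjusted p = 3.62e-05). All 10 macrophage markers examined were high enough to test, among them Lyz2 and Cd68, although the mannose receptor Mrc1 averaged only 1.06 CPM after Ep300 siRNA and 1.44 CPM after control siRNA. Of 18 markers of other cell types no library held more than 18 counts, Cd8a and Epcam were at 0 throughout, and their summed level was 1.64 to 1.73 CPM in Ep300 siRNA libraries and 1.92 to 2.19 CPM in control siRNA libraries. Ep300 siRNA replicate 1 stood apart: it held the fewest counts and 5823 CPM of Gm42418, which overlaps ribosomal RNA, against 1363 to 2174 CPM in the other Ep300 siRNA libraries and 1327 to 1529 CPM in the control siRNA libraries.

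Of the 31 genes, 30 were high enough to test, and 2 of them (6.67%) changed: the SR genes Srsf9 and Srsf6, which both rose. Across all 15741 genes tested 6.78% were called, 2.76% as higher and 4.02% as lower, so the share among the splicing factors was near the background. Among the 4457 genes in the same range of mean level as the splicing factors, 40.7 to 1711 CPM, 11.7% were called. The share among the splicing factors was not tested against either. None of the 20 hnRNP genes passed edgeR's test after adjustment, while DESeq2 called 1 (Hnrnph3) and limma-voom 0. Over all 15741 genes tested, DESeq2 called 1436 and limma-voom 1043, against 1068 by edgeR. Unadjusted p-values under 0.05 were found for 4 of the 30 genes, 2 of them hnRNP genes, against 22.2% of all genes tested. The median size of their log2 fold changes, whatever the sign, was 0.072, against 0.14 over all genes tested and 0.097 over the genes in the same CPM range. With library sizes alone, in place of TMM scaling, 316 genes rose and 788 fell over the whole table, against 435 and 633 with it.

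The promoters of the 2 genes that rose and of Hnrnph3, the hnRNP gene nearest to the threshold, are shown because the comparison turns on these genes. Each sequence is the 150 bases before the transcription start, 5′ to 3′ on the gene's strand, from RefSeq on GRCm38.p6. Capitals mark GC boxes, searched as GGGCGG on both strands. The Srsf9 window lies at chr5:115327027-115327176 (plus strand), the Srsf6 window at chr2:162931358-162931507 (plus strand) and the Hnrnph3 window at chr10:63023850-63023999 (minus strand).
Srsf9: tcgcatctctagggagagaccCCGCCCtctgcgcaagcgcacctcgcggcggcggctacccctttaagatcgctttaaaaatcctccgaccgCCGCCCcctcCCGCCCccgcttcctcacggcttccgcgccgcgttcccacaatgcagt
Srsf6: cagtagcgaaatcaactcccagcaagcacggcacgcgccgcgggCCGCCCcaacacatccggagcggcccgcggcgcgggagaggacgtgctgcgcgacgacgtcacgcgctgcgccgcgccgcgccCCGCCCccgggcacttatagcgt
Hnrnph3: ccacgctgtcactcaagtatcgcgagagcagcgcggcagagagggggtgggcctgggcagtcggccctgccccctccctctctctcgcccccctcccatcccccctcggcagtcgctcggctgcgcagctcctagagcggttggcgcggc
Both genes that rose held GC boxes here, 3 in the Srsf9 window and 2 in the Srsf6 window, each read as CCGCCC on this strand, and the 150 bases of Hnrnph3 held none. The RefSeq start of Hnrnph3 lies 368 bases inside the gene as GENCODE M21 annotates it, so that this sequence is part of the annotated gene, and its window of 300 bases held 1 GC box. In windows of 300 bases, from 250 before to 50 after the start, 23 of the 28 tested splicing factors with an entry held a GC box, against 66.7% of 9896 tested genes and 35.7% of all 32851 windows. The CCAAT box, searched as CCAAT, was found for 17 of the 28, against 42.7% of tested genes and 37.4% of all windows. The E-box CACGTG was found for 5 of the 28, all of them hnRNP genes, against 11.8% and 7.2%. The ETS core CCGGAAG was found for 6 (20.2% and 8.9%), TATAAA for 4 (8.6% and 13.6%) and the cyclic AMP element TGACGTCA for none (3.7% and 1.8%). All were searched on both strands, and none of these motifs contains another. A splicing factor or tested gene was counted if any of its windows held the motif, whereas shares of all windows count single windows. The shares of all windows are therefore not on the same scale. A match to these letters is a description of the window and shows no binding. Over the 40 annotated starts of the splicing factors, the 150 bases before the start held a median of 15 CG dinucleotides, against 4 over all windows. No median was computed over tested genes alone, so whether the splicing factors differ from these in CpG is not known.

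Srsf9 (chromosome 5, 115327177 to 115333080, plus strand, GRCm38) encodes a small SR protein that acts in alternative splice site choice. It was at 71.9, 55.4 and 56.2 CPM in the Ep300 siRNA libraries, against 50.5, 43.5 and 45.7 CPM in the control siRNA libraries. The groups did not overlap, and the highest value was that of Ep300 siRNA replicate 1. Srsf9 rose 1.31-fold (log2 fold change 0.39 ± 0.10, SE; 95% interval 0.18 to 0.61; edgeR adjusted p = 0.0361). Without Ep300 siRNA replicate 1, the library with the high Gm42418 level, the log2 fold change was 0.27 and the call was lost (edgeR adjusted p = 0.0715). It was also lost without control siRNA replicate 2 (0.35, edgeR adjusted p = 0.127) or replicate 3 (0.38, edgeR adjusted p = 0.0923), and with library sizes alone (0.36, edgeR adjusted p = 0.0529). The call held by DESeq2 (adjusted p = 0.00263) and by limma-voom (adjusted p = 0.0436). It also held with no filter on low counts (edgeR adjusted p = 4.3e-05). In that fit the edgeR adjusted p of Ep300 was 1.07e-41, against 3.62e-05 with the filter. The size of adjusted p-values with no filter, here and below, is thus not comparable with those of the filtered fit. Why they differ was not tested.

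Srsf6 (chromosome 2, 162931528 to 162937121, plus strand) encodes an SR protein that promotes inclusion of exons holding its enhancer motifs. Its levels were 151.1, 169.8 and 157.2 CPM in the Ep300 siRNA libraries and 141.4, 120.7 and 132.0 CPM in the control siRNA libraries. All Ep300 siRNA libraries lay above all controls, with replicate 2 the highest in its group and the lowest in the other. Srsf6 rose 1.21-fold (log2 fold change 0.28 ± 0.07, SE; 95% interval 0.12 to 0.44; edgeR adjusted p = 0.0413). The call held without Ep300 siRNA replicate 1 (0.32, edgeR adjusted p = 0.0379) and without control siRNA replicate 1 (0.34, edgeR adjusted p = 0.0175). It was lost with each of the other 4 libraries left out, at edgeR adjusted p of 0.0971 to 0.147, and with library sizes alone (0.24, edgeR adjusted p = 0.0824). DESeq2 (adjusted p = 0.00612), limma-voom (adjusted p = 0.0401) and edgeR with no filter on low counts (adjusted p = 0.00471) kept the call. Neither Srsf9 nor Srsf6 shares annotated exon bases with another gene. No annotated pseudogene matched the longest protein-coding transcript of either over at least 200 bases at 90% identity or more.

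**Figure D1:**
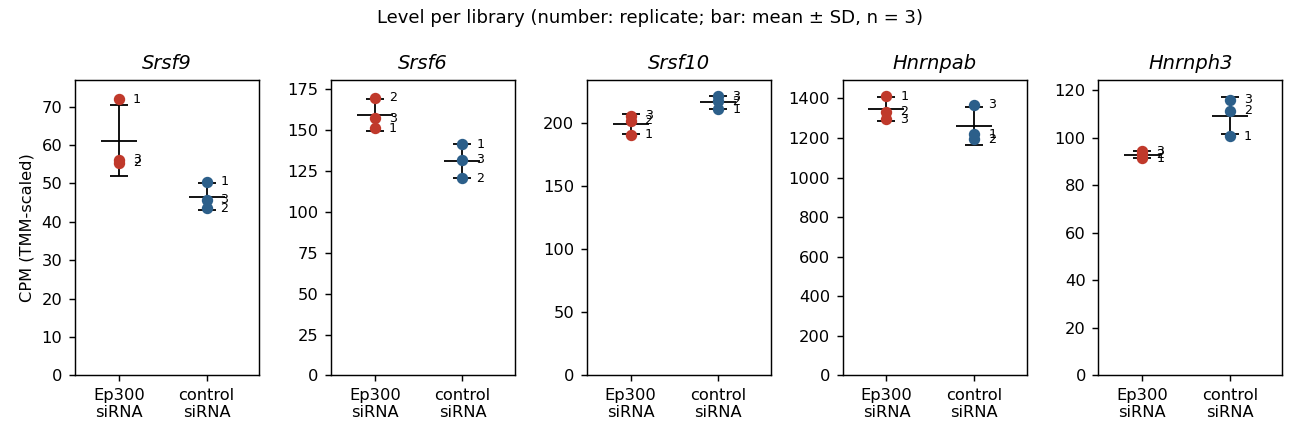
CPM of 5 splicing factor genes in each library (points, numbered by replicate), with Ep300 siRNA left of control siRNA; bars are mean ± SD of 3 libraries. Srsf9 and Srsf6 lie higher in all Ep300 siRNA libraries, Srsf10 and Hnrnph3 lie lower in all of them without passing the test, and the groups overlap for Hnrnpab.

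**Figure D2:**
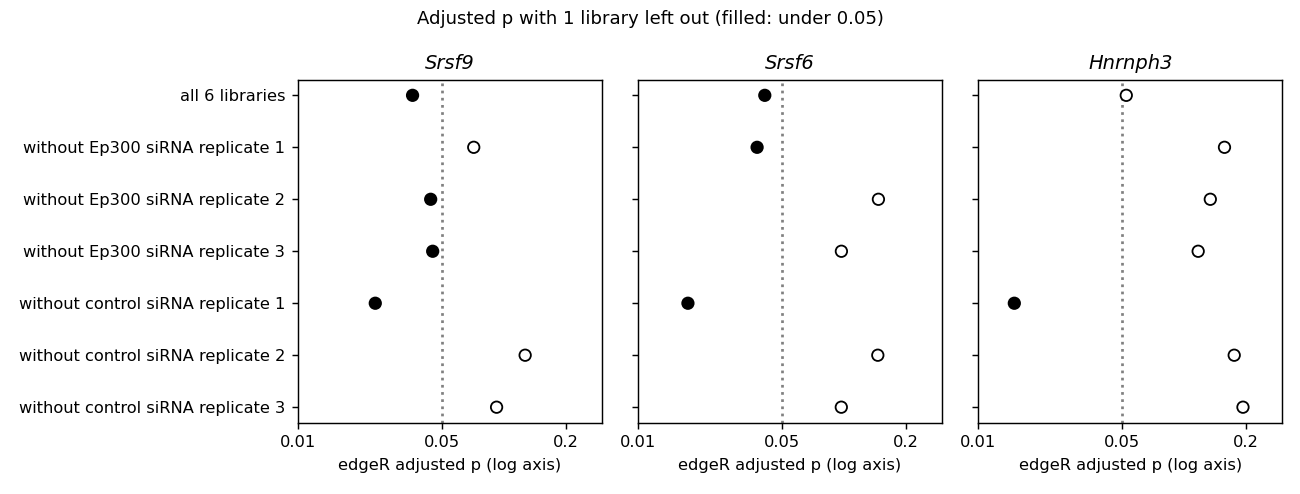
EdgeR adjusted p (log axis) of Srsf9, Srsf6 and Hnrnph3 with all 6 libraries and with each library left out; filled points lie under 0.05 (dotted line). Srsf9 passes in 3 of the 6 reduced fits, Srsf6 in 2 and Hnrnph3 in 1.

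The other 8 SR genes tested did not pass. The smallest p among them was that of Srsf10, whose protein can act as a general splicing repressor when dephosphorylated. It was at 190.7, 201.8 and 205.8 CPM in the Ep300 siRNA libraries, against 211.1, 217.5 and 221.2 CPM in the control siRNA libraries. The groups did not overlap, but the log2 fold change of −0.12 ± 0.06 had a 95% interval of −0.25 to 0.01 and did not pass (SE; edgeR adjusted p = 0.265). Srsf1, which acts in constitutive and alternative splicing, averaged 125.0 ± 4.90 CPM after Ep300 siRNA and 132.6 ± 3.78 CPM after control siRNA (SD, n = 3 each). Its libraries did not overlap either, at a log2 fold change of −0.08 ± 0.06 (SE; edgeR adjusted p = 0.442).

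The 2 SR genes with the highest CPM were Srsf11 and Srsf5. Srsf11 was at 423.9, 490.6 and 425.5 CPM in the Ep300 siRNA libraries and 439.2, 430.9 and 464.8 CPM in the control siRNA libraries, so that the groups overlapped (log2 fold change 0.01 ± 0.07, SE; edgeR adjusted p = 0.976). Srsf5 was at 274.3, 287.5 and 283.9 CPM in the Ep300 siRNA libraries and 276.5, 340.6 and 302.7 CPM in the control siRNA libraries. Here the spread came from the controls, of which replicate 2 was the highest and replicate 1 lay within the Ep300 siRNA range (log2 fold change −0.12 ± 0.08, SE; edgeR adjusted p = 0.394).

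Srsf2, which marks nuclear speckles, was the least precisely measured. Its levels were 47.1, 46.2 and 46.7 CPM in the Ep300 siRNA libraries and 56.6, 36.6 and 48.5 CPM in the control siRNA libraries, a coefficient of variation of 1.04% against 21.3%. The 95% interval of its log2 fold change ran from −0.28 to 0.25. Srsf3, a small SR protein, and Srsf7, which carries a zinc knuckle, were at log2 fold changes of −0.01 ± 0.06 and −0.04 ± 0.07 (SE). Srsf4 was at 0.07 ± 0.07 (SE). Srsf12 was too low to test, with 13, 2 and 2 counts in the Ep300 siRNA libraries and 2, 2 and 0 counts in the control siRNA libraries. Its highest count was again in Ep300 siRNA replicate 1.

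Among the hnRNP genes, Hnrnph3, a member of the F/H group that binds G-rich RNA, had the smallest p. It was at 91.4, 93.0 and 94.3 CPM in the Ep300 siRNA libraries, against 100.7, 111.5 and 116.0 CPM in the control siRNA libraries. All Ep300 siRNA libraries lay below all controls, and their spread was the smaller. At a log2 fold change of −0.24 ± 0.06 (SE; 95% interval −0.38 to −0.09) the edgeR adjusted p was 0.0524, just outside the threshold of 0.05. It passed without control siRNA replicate 1 (−0.29, edgeR adjusted p = 0.015), with library sizes alone (−0.27, edgeR adjusted p = 0.0292) and by DESeq2 (−0.23, adjusted p = 0.029). It also passed with no filter on low counts (edgeR adjusted p = 0.0195) and with halved counts (0.0487). Hnrnph3 did not pass by limma-voom (adjusted p = 0.0552), or by edgeR with RLE scaling (adjusted p = 0.0596) or upper-quartile scaling (0.0558). Of the other F/H genes, none of which passed, Hnrnph1 was at −0.09 ± 0.07, Hnrnph2 at 0.07 ± 0.06 and Hnrnpf at −0.04 ± 0.07 (log2 fold change, SE). The differences between these genes were not tested.

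The A/B group holds the classic repressors of exon inclusion and packaging proteins of nascent RNA. Hnrnpa1 averaged 605.9 ± 35.1 CPM after Ep300 siRNA and 694.3 ± 66.1 CPM after control siRNA (SD, n = 3 each), at a log2 fold change of −0.20 ± 0.08 (SE; edgeR adjusted p = 0.171; 0.0497 with no filter on low counts), and its groups overlapped. Hnrnpab, which had the smallest p among hnRNP genes with positive values, was at 1410.8, 1331.8 and 1294.8 CPM in the Ep300 siRNA libraries and 1219.1, 1192.5 and 1368.8 CPM in the control siRNA libraries. Control siRNA replicate 3 lay within the Ep300 siRNA range, and the log2 fold change of 0.09 ± 0.07 did not pass (SE; edgeR adjusted p = 0.505).

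The 2 hnRNP genes with the highest CPM were also of this group. Hnrnpa2b1, whose protein sorts RNAs as well as regulating splicing, was at 1664.0, 1719.7 and 1712.1 CPM in the Ep300 siRNA libraries and 1686.0, 1649.7 and 1836.5 CPM in the control siRNA libraries (log2 fold change −0.02 ± 0.07, SE; edgeR adjusted p = 0.895). Hnrnpa3 was at 1581.4, 1540.9 and 1576.1 CPM in the Ep300 siRNA libraries and 1541.0, 1647.5 and 1800.8 CPM in the control siRNA libraries (−0.09 ± 0.07, SE; edgeR adjusted p = 0.541). In both, control siRNA replicate 3 was the highest library and the groups overlapped. The last of the group, Hnrnpa0, had a log2 fold change of −0.08 ± 0.08 (SE).

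The remaining 11 hnRNP genes were at log2 fold changes of −0.09 to 0.07. Hnrnpc, which binds uridine tracts, was at 0.01 ± 0.06 (SE) and Hnrnpk, a KH-domain protein that binds C-rich RNA, at −0.08 ± 0.06. Hnrnpd, which also binds AU-rich elements of unstable mRNAs, and its relative Hnrnpdl were at 0.01 ± 0.06 and −0.01 ± 0.07. Hnrnpm was at −0.03 ± 0.06 and Hnrnpr at −0.07 ± 0.06. Of the U group, which binds both RNA and nuclear scaffold DNA, Hnrnpu was at −0.03 ± 0.07, Hnrnpul1 at 0.07 ± 0.06 and Hnrnpul2 at 0.02 ± 0.06.

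Hnrnpl was at −0.07 ± 0.06 (SE). Its paralog Hnrnpll, known in lymphocytes for silencing variable exons of Ptprc, had libraries that did not overlap: 61.7, 62.9 and 64.5 CPM after Ep300 siRNA, against 65.4, 68.4 and 67.3 CPM after control siRNA. That difference was small, at a log2 fold change of −0.09 ± 0.06 (SE; edgeR adjusted p = 0.399).

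The 28 splicing factors that did not pass were measured closely enough to bound their change. For 26 of them the 95% interval of the fold change lay within 1.25-fold in either direction, and the intervals of all 28 lay within 1.5-fold. The exceptions at 1.25-fold were Hnrnph3 and Hnrnpa1, whose intervals reached 0.77 and 0.773 of the control level. These intervals cover the spread of 3 libraries a group. Of the 30 tested, 20 (66.7%) had negative log2 fold changes, with a median over the 30 of −0.027. Over all genes tested 50.8% were negative, with a median of −0.0038, and over the genes in the same CPM range 44.1% were, with a median of 0.02. The groups did not overlap for 6 of the 30, 2 above and 4 below the control libraries, against 27.5% of all genes tested (13.0% above and 14.4% below), which is no excess.

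**Figure D3:**
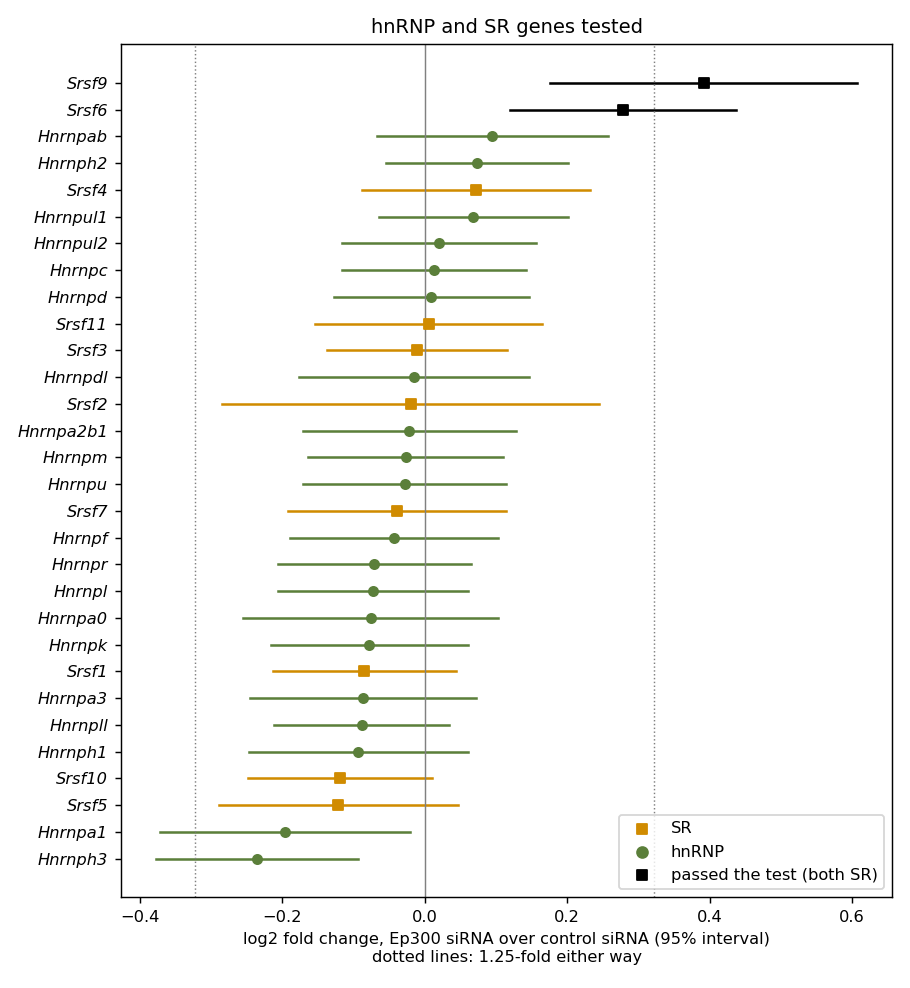
Log2 fold change of the 30 genes tested, Ep300 siRNA over control siRNA, with 95% intervals from edgeR; squares are SR genes and circles hnRNP genes, and black marks the 2 genes that passed. Apart from Srsf9, Srsf6, Hnrnpa1 and Hnrnph3, the intervals include 0 and stay between the dotted lines at 1.25-fold.

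The summed level of each family was close in both groups. The 20 hnRNP genes together were at 12005, 11991 and 12100 CPM in the Ep300 siRNA libraries and 12096, 11928 and 12858 CPM in the control siRNA libraries. The 10 tested SR genes together were at 1714, 1789 and 1736 CPM in the Ep300 siRNA libraries and 1723, 1724 and 1792 CPM in the control siRNA libraries. In both families control siRNA replicate 3 held the highest sum and the groups overlapped. As shares of all counts, hnRNP genes took 1.19 ± 0.017% after Ep300 siRNA and 1.24 ± 0.0605% after control siRNA (SD, n = 3 each).

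Levels of different genes were compared per kilobase of exon, using the union of annotated exons in GENCODE M21. On that scale Hnrnpab led the hnRNP genes at 483.7 ± 21.3 CPM per kb after Ep300 siRNA and 453.0 ± 34.2 CPM per kb after control siRNA (SD, n = 3 each). It was followed by Hnrnpa3, Hnrnpa2b1, Hnrnpf and Hnrnpa1, at 290.2 to 192.2 CPM per kb after Ep300 siRNA and 308.2 to 220.2 CPM per kb after control siRNA, and Hnrnpll was lowest at 5.40 ± 0.122 CPM per kb after Ep300 siRNA and 5.74 ± 0.129 CPM per kb after control siRNA. Srsf5 led the SR genes at 70.7 ± 1.71 CPM per kb after Ep300 siRNA and 76.9 ± 8.08 CPM per kb after control siRNA. Srsf2 was the lowest SR gene tested, at 15.78 ± 0.164 CPM per kb after Ep300 siRNA and 15.97 ± 3.39 CPM per kb after control siRNA. In the controls the first 10 places on that scale, over both families, were held by hnRNP genes.

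Of the 29 neighbouring pairs in the control order, 12 had control ranges that overlapped. Ranges ignore that both genes of a pair were measured in the same libraries, so an overlap alone does not leave the order unresolved. Hnrnpf lay above Hnrnpa1 in every control library, although their ranges overlapped. Srsf5, ranked above Hnrnpk, lay below it in control siRNA replicate 1 (69.3 against 77.6 CPM per kb). After Ep300 siRNA, 18 of the 30 genes kept their place and the largest shift was of 3 places. Srsf9 moved by 3, standing 17th after Ep300 siRNA and 20th in the controls. The order depends on the length used. On the median length of protein-coding transcripts, Hnrnpa3 led the controls at 1190.5 CPM per kb, ahead of Hnrnpa2b1 and Hnrnpab. Hnrnpk stood 4th on that scale, against 12th, and Hnrnpr 17th, against 29th. Srsf11 stood 10th, against 14th, and led the SR genes in the controls at 270.8 CPM per kb, ahead of Srsf5 at 204.7. Hnrnpa0 was then the lowest in the controls at 15.6 CPM per kb, below Hnrnpll at 21.9.

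**Figure D4:**
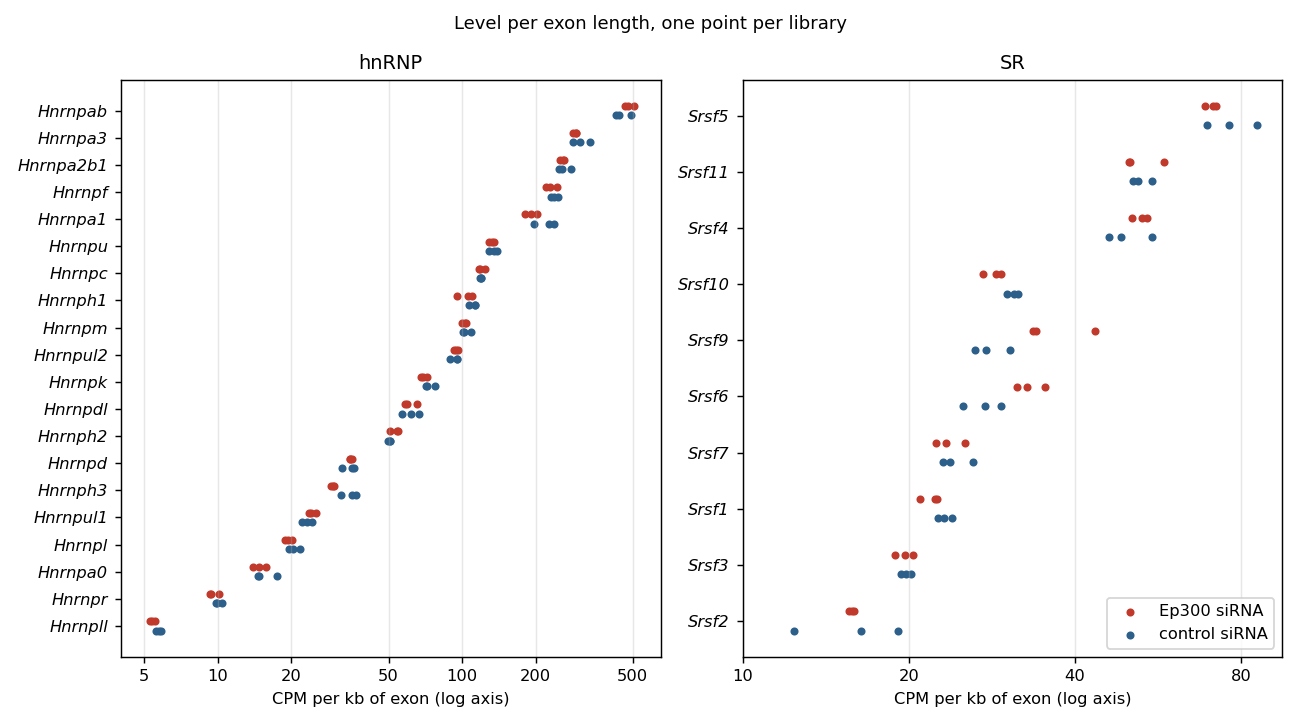
CPM per kb of annotated exon (log axis) of the hnRNP genes (left) and SR genes (right), 1 point per library, with Ep300 siRNA drawn above control siRNA for each gene. Levels span from 5.40 CPM per kb (Hnrnpll) to 483.7 CPM per kb (Hnrnpab) after Ep300 siRNA, and only Srsf9, Srsf6, Srsf10, Srsf1, Hnrnph3 and Hnrnpll have groups that do not overlap.

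Annotation of these genes bears on what their counts hold. Of the SR genes tested, 9 of 10 had at least 1 transcript annotated for nonsense-mediated decay, as had 10 of 20 hnRNP genes, against 29.3% of 11885 tested protein-coding genes. Srsf9, Srsf6 and Hnrnph3 each had 1 such transcript, and Srsf10 had none. A change in the balance of these transcripts cannot be read from counts per gene. How strand was used in counting was not given in the sources used here. The libraries were stranded, but whether reads of genes overlapping on opposite strands were counted apart is therefore not known. Opposite-strand genes covered 43.0% of the exon bases of Srsf4, 29.1% of Hnrnpab (Phykpl), 26.5% of Hnrnpf and 25.3% of Srsf2 (Mettl23 and Mfsd11), and 3.6% of Hnrnph3 (Rufy2). Genes on the same strand, which no strand setting separates, shared 14.7% of the exon bases of Hnrnpm (March2), 5.1% of Hnrnpul2 and 1.1% of Hnrnpa3.

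Annotated pseudogenes of any type matched several hnRNP genes closely, so that reads may be split between copies. The longest protein-coding transcript of each gene was searched. Most matches were found for Hnrnpa3, with 37 annotated pseudogenes at 90% identity or more over at least 200 bases, and Hnrnpa1, with 17. The clearest case was Hnrnpf, whose transcript matched Gm6430 at 99.3% identity over 1248 bases. Gm6430 held 4186, 4548 and 5120 counts in the Ep300 siRNA libraries and 7742, 5077 and 5041 counts in the control siRNA libraries. Counts of all matching pseudogenes came to 21.7% of those of Hnrnpf after Ep300 siRNA and 22.8% after control siRNA. For Hnrnpa3 these shares were 3.88% and 3.69%.

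Genes that work with the splicing factors were called at shares near or below the 6.78% of all genes tested. Of 38 core spliceosome subunits, 2 rose, none fell and 36 did not pass (median log2 fold change −0.016). Sf3b2, a subunit of the U2 particle's SF3b complex, was at 857.1, 844.6 and 838.0 CPM in the Ep300 siRNA libraries and 710.3, 703.6 and 694.3 CPM in the control siRNA libraries. These groups lay well apart, and Sf3b2 rose 1.20-fold (log2 fold change 0.27 ± 0.06, SE; edgeR adjusted p = 0.0205). Snrpb2, another U2 protein, was at 83.8, 80.8 and 87.3 CPM in the Ep300 siRNA libraries and 72.0, 72.8 and 70.4 CPM in the control siRNA libraries. It rose 1.17-fold (0.23 ± 0.06, SE; edgeR adjusted p = 0.0374), again with groups that did not overlap. With 1 library left out, Sf3b2 kept its call in 1 of 6 fits (edgeR adjusted p up to 0.07) and Snrpb2 in 0 of 6 (up to 0.14). Snrpb2 also lost its call with library sizes alone (0.19, edgeR adjusted p = 0.0721) and with no filter on low counts (0.22, edgeR adjusted p = 0.0509).

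Of 15 nonsense-mediated decay factors, 1 rose and none fell (median 0.011). Upf3a, a partner of Upf1 and Upf2 in that pathway, was at 185.5, 176.8 and 172.7 CPM in the Ep300 siRNA libraries and 142.8, 142.8 and 142.3 CPM in the control siRNA libraries. It rose 1.25-fold (log2 fold change 0.32 ± 0.06, SE; edgeR adjusted p = 0.00649) and kept its call in all 6 fits with 1 library left out (edgeR adjusted p up to 0.0327).

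In the other lists no gene passed in the main edgeR fit (all 6 libraries, counts as deposited, low-count filter, TMM scaling, no covariate). Mbnl2 and Raly passed under some other settings, given below. Of 11 tested kinases of SR proteins and nuclear import factors, among them Srpk1, Srpk2 and Clk1 to Clk4, 1 had an unadjusted p under 0.05, and DESeq2 and limma-voom called 0. It was Tnpo3, which imports phosphorylated SR proteins into the nucleus, at 74.3 ± 3.42 CPM after Ep300 siRNA and 83.8 ± 4.35 CPM after control siRNA (SD, n = 3 each; log2 fold change −0.17 ± 0.06, SE; edgeR adjusted p = 0.132). Of 25 tested SR-like and SR-related genes 2 had an unadjusted p under 0.05, and DESeq2 and limma-voom called 0. The smallest p was that of Ddx39b (−0.18 ± 0.06, SE; edgeR adjusted p = 0.0866). It is an RNA helicase of spliceosome assembly and mRNA export, counted in this list though not itself SR-like.

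Of 35 tested genes for other hnRNP and splicing regulator proteins, such as Ptbp1, Pcbp2 and Mbnl1, 4 had an unadjusted p under 0.05. DESeq2 called 2 (Mbnl2 and Raly) and limma-voom 0. The smallest p was that of Mbnl2, a muscleblind splicing regulator, at 94.8 ± 4.97 CPM after Ep300 siRNA and 110.8 ± 4.13 CPM after control siRNA (SD, n = 3 each; log2 fold change −0.22 ± 0.06, SE; edgeR adjusted p = 0.0535). Mbnl2 passed with library sizes alone (edgeR adjusted p = 0.0292), no filter (0.0294), halved counts (0.0485) and by DESeq2 (0.0326), and in none of the fits with 1 library left out (0.0677 to 0.199). Raly, at a log2 fold change of 0.22 ± 0.07 (SE; edgeR adjusted p = 0.101), also passed with no filter on low counts. The medians of these lists were −0.0057, 0.0073 and −0.044, close to that of all genes tested.

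**Figure D5:**
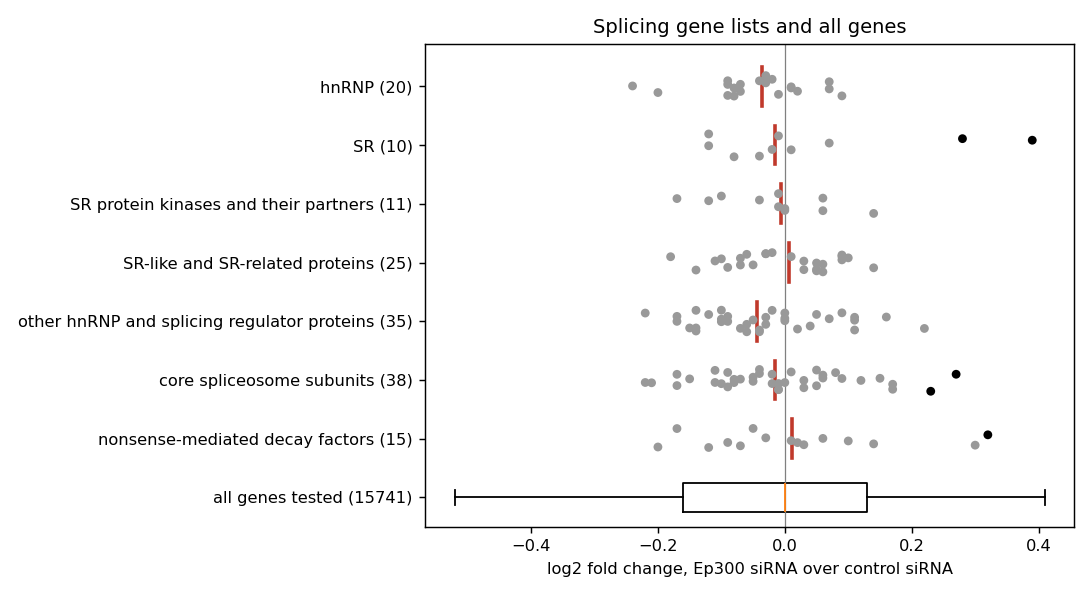
Log2 fold change, Ep300 siRNA over control siRNA, of the hnRNP and SR genes and of 5 lists of partner genes (points; black where the edgeR adjusted p is under 0.05; red bar: median), with all genes tested below (box: quartiles; whiskers: 5th to 95th percentile). The 2 SR genes, 2 spliceosome subunits and 1 decay factor that passed all lie on the positive side, and the list medians lie near 0.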

How the data were processed

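Gene expression was measured in 6 RNA-seq libraries, 3 per group, each made from 2 µg of total RNA. The authors deposited raw read counts per gene symbol, 1 column per library, matched to samples by name. The tools were STAR 2.5.3a, fastp 0.23.4, edgeR 3.12.1 and featureCounts on GRCm38, per the submitters' processing notes; annotation, strand and multimapping settings were not given in the sources used here. Of the counts between 1 and 4, 79.8% to 80.9% per library were even, as counting both mates would give.

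Counts were tested over the whole table with edgeR 4.0.16 (R 4.3.3): filterByExpr, TMM factors and a quasi-likelihood F-test with no covariate, two-sided, adjusted by Benjamini-Hochberg over 15741 genes, threshold 0.05. Each standard error is the log2 fold change over the root of F. Libraries of a group differed beyond sampling noise (chi-square over degrees of freedom 9.19 to 32.9). Counting error is included in the standard errors. PCR copies, which were not measured here, may limit precision further.

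The genes, gene lists and the naming rule were chosen with earlier results of these data known. Values in every library were given for splicing factors and partner genes that passed, for the smallest p per direction in each family, and for the 2 highest CPM in each family; Srsf2, Hnrnpll and Srsf12 were added after their values were seen. Rbm23 was not analysed here. Lengths and overlaps came from GENCODE M21, in which all 31 symbols were found, and pseudogene matches from BLAST 2.17.0. Promoters came from RefSeq (GRCm38.p6), with windows for 29 of the 31. Alternatives were RLE, upper-quartile and no scaling, no filter, a filter of 1 CPM in 3 libraries, halved counts, DESeq2 1.42.0, a block for replicate number, limma-voom (limma 3.58.1), an adjusted p under 0.01 and each library left out. Figures used matplotlib 3.10.9.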

Additional observations from a re-analysis of the deposited data

How the results depend on the processing

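The count of splicing factors that changed, 2, was 1 with library sizes alone, 4 with no filter on low counts, 0 at an adjusted p under 0.01 and 0 to 3 with 1 library left out; it was 0 without control siRNA replicate 2 or 3. Over all genes, 1068 became 1721 with no filter (30207 genes tested), 369 at an adjusted p under 0.01 and 490 to 1054 with 1 library left out. A stricter threshold can only call fewer genes. Fits with 1 library left out also held fewer samples, and the causes of these shifts were not tested. Ep300 passed in every setting run, at −1.09 to −0.98 with 1 library left out.

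Whether the replicate numbers pair the libraries was not settled. Deviations from the group means correlated at 0.18, 0.03 and −0.05 for numbers 1, 2 and 3. Of the Ep300 siRNA libraries, only replicate 1 correlated best with the control siRNA library of its own number. Deviations from means of 3 libraries cannot exclude pairing. With the replicate block 1357 genes and 3 splicing factors were called: Srsf9 (edgeR adjusted p = 0.00396), Srsf6 (0.0399) and Hnrnph3 (0.0349). Mbnl2 also passed (edgeR adjusted p = 0.0378).

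Reversals were found only for splicing factors near 0 that did not pass. With library sizes alone Hnrnpc was at −0.021, Hnrnpul2 at −0.013, Srsf11 at −0.029 and Hnrnpd at −0.025; Srsf11 was at −0.002 with no filter and Srsf2 at 0.003 with the replicate block. With 1 library left out the log2 fold change ran from −0.12 to 0.017 for Hnrnpa0, −0.042 to 0.031 for Hnrnpa2b1, −0.002 to 0.029 for Hnrnpc, −0.028 to 0.046 for Hnrnpd, −0.064 to 0.047 for Hnrnpdl, −0.041 to 0.01 for Hnrnpm, −0.049 to 0.004 for Hnrnpu, −0.008 to 0.044 for Hnrnpul2, −0.066 to 0.051 for Srsf11, −0.16 to 0.14 for Srsf2, −0.027 to 0.018 for Srsf3 and −0.09 to 0.021 for Srsf7. Srsf9 ran from 0.27 to 0.46 and Srsf6 from 0.23 to 0.34. With 3 libraries a group, changes of the size of the standard errors, 0.06 to 0.12 on the log2 scale for the splicing factors, could not be resolved.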
